A study of Mus musculus with 6 samples.

Results

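Among the bone marrow cells that were sorted as stem and progenitor cells, a small group, cluster 8 of the authors' numbering, carried the transcripts of lymphocytes of the T, natural killer (NK) and innate lymphoid kind. Its members were the cells to which the authors' cell table gives the number 8, which are 113 of 16822 kept cells (0.672%). Kept cells are the barcodes that this table holds. The number is the authors' own, from a clustering of these same data, and no further measured value was used here to choose the members. The name "T and NK cells" was given with the markers Trbc1, Ncr1 and Gzma. It was read against the data that made the cluster, so the values below are no independent support for it.

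The hosts were female C57BL/6J mice carrying the CD45.1 allele, 8 to 12 weeks old and without conditioning before transfer. They had been given either PBS or 1000000 cells of C1498, a murine acute myeloid leukemia (AML) line that carries CD45.2, and were killed 21 days later. Marrow cells that were CD45.1+, lineage negative, cKit+ and Sca1+ were sorted, so leukemic cells and cells bearing the lineage markers of mature lymphocytes were meant to be left out. Counts of unique molecular identifiers (UMIs) per gene came from 3 PBS and 3 AML libraries, and the cell table holds no cell of AML replicate 2. The labels do not say whether the libraries came from separate mice, so p-values measure the spread between these libraries, which may be technical.

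T cells recognise antigen through a receptor of alpha and beta or of gamma and delta chains, which reaches the surface only with the CD3 chains. NK cells carry no such receptor and read their targets through activating and inhibitory receptors, many of them encoded side by side in 1 stretch of the genome, the NK gene complex. Innate lymphoid cells lack antigen receptors as well, depend on interleukin 7 and on the factors Id2 and Gata3, and include tissue-resident groups. Their precursors in the marrow can hold transcripts of unassembled receptor genes, and early T and NK cells share many genes with them.

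Cluster 8 held 28, 5 and 23 cells in PBS replicates 1 to 3 and 5 and 52 cells in AML replicates 1 and 3. Its cells had 509013 UMIs together, from 16852 (AML replicate 1) to 228337 (AML replicate 3). The median was 3516 UMIs a cell (range 1822 to 18357), below the 4580 of the other kept cells. Some cell barcodes occurred in more than 1 library: 29 of the 113 did (25.7%), against 32.7% of all kept cells, and 27 of the 29 were found in AML replicate 2. All 934 kept barcodes of PBS replicate 2 occurred in AML replicate 2, its 5 cells of cluster 8 included, and 2 of these 5 also in PBS replicate 1. For 1 cell of cluster 8 the same barcode was a kept cell of another library too. AML replicate 3 holds 52 of the 113 cells, so pooled levels lean on it and are given by library where a statement turns on them.

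The genes that led cluster 8 were those of antigen receptor constant regions and of NK receptors. Levels are counts per 1000000 UMIs (CPM), and genes with a UMI in at least 20% of the cluster's cells were ranked by the ratio of CPM + 10 in cluster 8 to CPM + 10 in clusters 0 to 7. Because the clustering had used these genes, the ranking is a description and carries no test. Over all 21591 genes with a UMI in kept cells, 1.85% had a ratio of at least 2 and 0.662% a ratio of at most 0.5. The 20 genes in front were, in order, Trbc1, Ccl5, Trbc2, Cd7, Skap1, Ncr1, Klrk1, Klrb1c, Tcrg-C1, Id2, Tcrg-C4, Ms4a4b, Txk, Xcl1, Bcl11b, Gm36723, Cd226, Klrd1, Klrb1b and Gimap3. The last of them, Gimap3, stood at a ratio of 12.7 and the first gene left out, Ikzf3, at 12.4.

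Trbc1, the first constant region of the T cell receptor beta chain, reached 246, 1545 and 540 CPM in cluster 8 of PBS replicates 1 to 3, 0 in AML replicate 1 and 543 in AML replicate 3. In the other kept cells it stayed between 0 and 0.840 CPM in every library. Ccl5, a chemokine of activated T and NK cells, had 883, 217 and 1813 CPM under PBS and 475 and 2777 under AML. It was the most abundant of the 20 in the pooled cells, but in PBS replicate 2 it lay below Trbc1 and below Tcrg-C1 (488 CPM), Ncr1 and Bcl11b (434 CPM), among others. Its level elsewhere ran from 5.40 to 102 CPM. Ncr1, the activating receptor NKp46, had 102, 461 and 147 CPM under PBS and 59.3 and 267 under AML, against at most 0.146 CPM in the other cells of any library. All 20 genes were higher in cluster 8 than in the rest in PBS replicates 1 to 3 and in AML replicate 3. In AML replicate 1, with 5 cells, 13 were higher and 7 were at 0. Ranking again without each library in turn returned 19 of the 20 names, except that 16 came back without AML replicate 3.

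**Figure D1:**
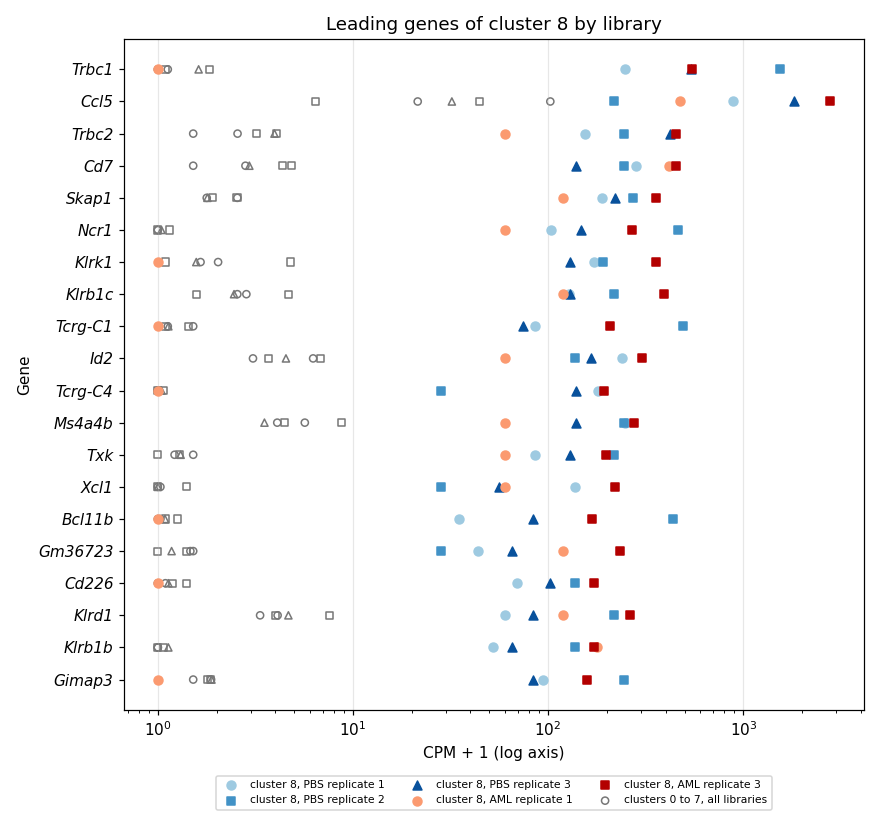
CPM + 1 on a log axis for the 20 leading genes, with filled symbols for cluster 8 in each of 5 libraries and open symbols for clusters 0 to 7 in the same libraries. Filled symbols lie to the right of the open ones except for the 7 genes at 0 in AML replicate 1, and the 2777 CPM of Ccl5 in AML replicate 3 is the highest point.

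Of these 20 genes, 7 lie on chromosome 6 (35.0%), which holds 5.28% of all genes with a UMI and a position. In GENCODE coordinates of GRCm38, Trbc1 is at chr6:41538218-41539881 and Trbc2 at chr6:41546730-41548352, both on the plus strand. Within the NK gene complex, Klrb1c (NK1.1) spans chr6:128778485-128789215, its neighbour Klrb1b chr6:128813706-128826331, Klrd1 (CD94) chr6:129591782-129598775 and Klrk1 (NKG2D) chr6:129610323-129623864. Gimap3, a GTPase of lymphocytes, is the last of the 7. Tcrg-C1 and Tcrg-C4, constant regions of the gamma chain, are both on chromosome 13. Trbc1 and Trbc2 are near-identical copies, as are several constant regions of the gamma chain and members of the Klra and Klrb1 families, so how reads were split among copies is uncertain.

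RefSeq start site windows of 300 bases (build GRCm38.p6) were matched by symbol for 11 of the 20 leading genes. Those of the 3 NK receptors with the most UMIs among the matched genes and of Xcl1, a chemokine of NK cells, are shown because each holds the letters TGTGGT, the core bound by RUNX factors, or its reverse complement ACCACA, which is in capitals.
Ncr1, chr7:4337465-4337764, plus strand: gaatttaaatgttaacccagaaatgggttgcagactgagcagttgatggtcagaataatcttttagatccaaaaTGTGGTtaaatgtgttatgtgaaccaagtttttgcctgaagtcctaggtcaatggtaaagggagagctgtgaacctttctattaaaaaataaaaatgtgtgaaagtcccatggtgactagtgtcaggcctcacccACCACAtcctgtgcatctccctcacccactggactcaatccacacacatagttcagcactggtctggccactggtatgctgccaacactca
Klrk1, chr6:129623815-129624114, minus strand: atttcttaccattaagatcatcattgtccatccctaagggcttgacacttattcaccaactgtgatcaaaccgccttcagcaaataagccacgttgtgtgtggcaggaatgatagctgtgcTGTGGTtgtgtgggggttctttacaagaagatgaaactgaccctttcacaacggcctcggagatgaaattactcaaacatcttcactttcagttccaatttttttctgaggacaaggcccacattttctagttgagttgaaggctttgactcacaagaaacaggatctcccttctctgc
Klrb1c, chr6:128788592-128788891, minus strand: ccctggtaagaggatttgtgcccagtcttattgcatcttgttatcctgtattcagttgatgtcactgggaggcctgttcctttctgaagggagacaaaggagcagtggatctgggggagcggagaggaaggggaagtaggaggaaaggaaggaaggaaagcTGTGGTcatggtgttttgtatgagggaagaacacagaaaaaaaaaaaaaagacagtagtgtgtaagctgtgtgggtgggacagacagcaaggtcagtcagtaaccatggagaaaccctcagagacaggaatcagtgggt
Xcl1, chr1:164935473-164935772, minus strand: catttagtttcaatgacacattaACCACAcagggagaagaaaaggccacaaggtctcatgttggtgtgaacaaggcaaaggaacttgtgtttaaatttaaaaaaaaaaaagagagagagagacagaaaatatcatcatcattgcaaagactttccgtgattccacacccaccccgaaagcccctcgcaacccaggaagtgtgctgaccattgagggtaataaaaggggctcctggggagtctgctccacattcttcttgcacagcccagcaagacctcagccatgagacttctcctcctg
The core stood in 5 of the 11 matched windows, in these 4 genes and in the noncoding Gm36723, against 16.9% of 27025 genes' windows, on either strand. AGGAAGT, an ETS core, stood in 3 of the 11 (Klrb1b, Txk and Xcl1) against 9.57% of all. GGTGTGA, a T-box core, stood in Xcl1 alone, against 3.96% of all, and the TCF core CTTTGAT was in none of the 11, against 3.72% of all. The GATA core, AGATAA, was in none either, against 11.4% of all. These matches describe letters in a window and are not binding sites. Runx3, the family's member of mature cytotoxic lymphocytes, had a UMI in 28.3% of cluster 8 cells and 18.1% of the other cells.

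Measured against the defining genes of T cells, the label held in part. The beta chain constant regions were frequent, with a UMI of Trbc1 in 51.3% of cells and of Trbc2 in 45.1%. By contrast the alpha chain constant region Trac was seen in 1.77% of cells, and the CD3 genes Cd3e, Cd3d and Cd3g in 1.77%, 5.31% and 7.08%. Any of these 4 genes was seen in 12 of 113 cells. The coreceptors were at or near 0, with no UMI of Cd4 and 1 cell each for Cd8a and Cd8b1. No UMI was found of Foxp3, the factor of regulatory T cells. A count of 0 in 113 cells allows a share of up to 2.65% of cells with a UMI, for counting error only.

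The gamma and delta chain genes were detected in 55.8% of cells. Tcrg-C4 had a UMI in 34.5%, Tcrg-C1 in 25.7%, the delta constant region Trdc in 9.73% and Tcrg-C2 in 6.19%, each against 0.0838% or less of the other cells. Constant region transcripts can come from a rearranged or an unrearranged locus, and the counts cannot tell these apart. Signalling genes shared by T and NK cells were frequent, among them the adaptor Skap1 in 59.3% of cells and the kinase Lck in 31.9%. Across the 14 listed coreceptors and signalling genes, 8 had a ratio of at least 2 and the median ratio was 3.49, against 0.995 over all genes.

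NK receptors formed the other large set. Of 22 listed receptors, 21 are in the files, 19 had a UMI in cluster 8 and 14 had a ratio of at least 2, with a median ratio of 3.95. Klrb1c was seen in 39.8% of cells, Klrk1 in 36.3%, Ncr1 in 34.5%, the inhibitory Klrb1b in 31.0% and the adhesion receptor Cd226 in 24.8%. These pooled shares lean on AML replicate 3. Ncr1 was in 5 of 28, 2 of 5 and 7 of 23 cells of PBS replicates 1 to 3. In AML replicates 1 and 3 it was in 1 of 5 and 24 of 52 cells. Ly49 genes were rare: Klra7 had a UMI in 3.54% of cells, Klra8 and Klra1 in 1.77%, Klra3 and Klra4 in 0.885%, and Klra9 in none. Il2rb, the receptor chain for interleukins 2 and 15, was seen in 25.7% of cells and in 0.0120% of the others.

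In the list of cytotoxic granule genes 10 of 14 had a UMI and 5 had a ratio of at least 2, and the summed level was 2055 CPM in cluster 8 and 1480 CPM in the other cells. Ctsw, a cathepsin of T and NK cells, was in 29.2% of cells against 3.91%, with a ratio of 6.77. The granzymes and perforin were sparse. Gzma, one of the markers given with the cluster, had a UMI in 8 of 113 cells (7.08%), and 37.7% of its 69 UMIs came from 1 cell. It was at 8.49, 813 and 128 CPM under PBS and at 0 and 105 under AML. Perforin (Prf1) was seen in 1.77% of cells, and the granzymes Gzmb, Gzmc, Gzmk and Gzmm had no UMI. Of 11 genes of NK maturation 7 had a UMI and 1, Il7r, had a ratio of at least 2, while Klrg1, S1pr5, Cx3cr1 and Cma1 were at 0. The T-box factors of NK cells were low, with Tbx21 in 8.85% of cells and Eomes in 3.54%, and both were in at most 0.0120% of the other cells. Nkg7, a granule protein that other marrow cells also transcribe, was in 61.9% of cluster 8 cells and in 44.6% of the rest.

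The innate lymphoid list stood out by its transcription factors and not by its cytokines. Of 20 genes, 13 had a ratio of at least 2 and the median ratio was 3.81. Id2, the inhibitor of E proteins, was in 54.9% of cells, the interleukin 7 receptor chain Il7r in 46.0%, Tox in 42.5%, Rora in 38.1%, Gata3 in 34.5% and Tcf7 in 26.5%. Arg1, which innate lymphoid cells of type 2 and their precursors express, was in 17.7% of cells and 0.0419% of the others, and Icos was in 14.2%. Zbtb16 (PLZF), a factor of innate lymphoid precursors, was in 13.3%, and the interleukin receptor chain Il18r1 in 31.0%. No UMI was found of the cytokines Il5, Il13 and Il22. Gata3 was at 127, 108 and 119 CPM in PBS replicates 1 to 3 and at 0 and 127 CPM in AML replicates 1 and 3, against 4.67 to 8.94 CPM in the other cells. Apart from AML replicate 1, its level in cluster 8 was nearly the same in every library.

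**Figure D2:**
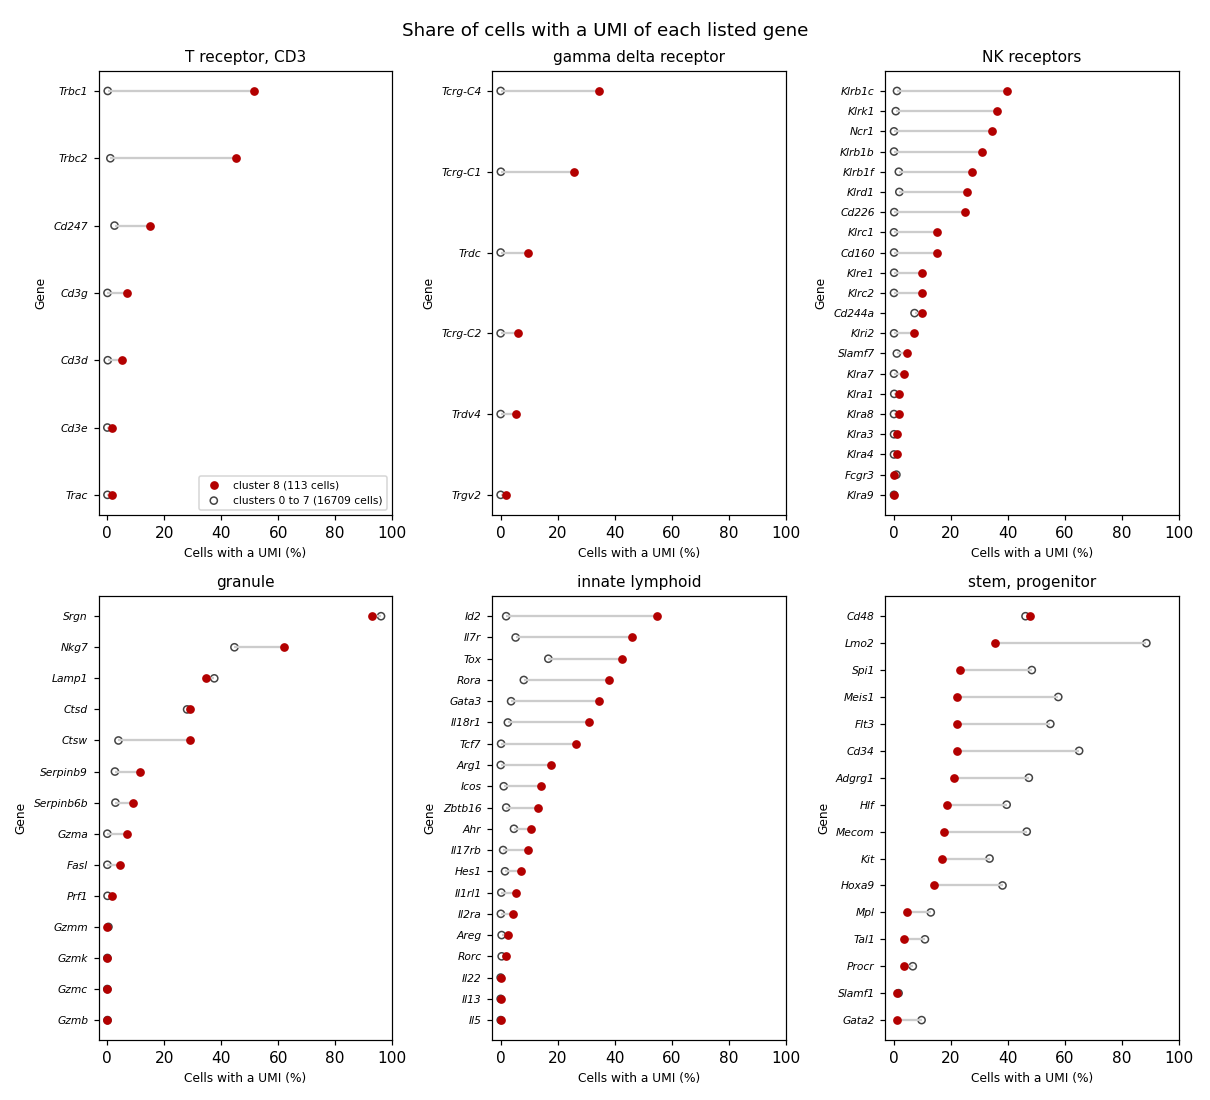
Percent of cells with at least 1 UMI of each listed gene, in cluster 8 (filled, 113 cells) and in clusters 0 to 7 (open, 16709 cells), in 6 panels by gene list. Trbc1 (51.3%) and Id2 (54.9%) lie far from their open points, the CD3 genes and Trac at 7.08% or less, and most stem and progenitor genes to the left of theirs.

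The markers of the sort itself were split. Kit was in 16.8% of cluster 8 cells and 33.5% of the others, while Ly6a (Sca1) was in 45.1% and 39.5% and Ptprc (CD45) in 65.5% and 35.7%. The stem and progenitor list had a median ratio of 0.559, with 6 of 16 genes at 0.5 or less and none at 2 or more. Cd34 was in 22.1% of cells against 65.0%, and Lmo2 in 35.4% against 88.6%. The authors' classes, which are scores of stem and progenitor signatures, call 72 of the 113 cells MPP3, 16 MPP4, 14 MPP2 and 11 HSC. By the authors' phases 79 cells were in G1, 13 in S and 21 in G2M, and none of the 5 cells of AML replicate 1 was in G1, where 14.8% of that library's other cells were.

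Genes of other cell types were read beside these lists. Immunoglobulin Igkc, which these cells should lack, had a UMI in 54 of 113 cluster 8 cells (47.8%) and in 6342 of 16709 other cells, while Cd79a, Ms4a1, Pax5 and Vpreb3 were at 0, so a UMI alone does not show expression here. In the dendritic cell list, 4 of 10 genes had a ratio of at least 2. Cd74, the class II invariant chain, was at 586, 2168 and 1859 CPM under PBS and 1187 and 1537 under AML, against 109 to 454 CPM elsewhere. The summed level of that list was 926 to 2954 CPM in cluster 8 and 325 to 856 CPM elsewhere, and its markers Siglech and Cd209a were at 0. In the mast cell and basophil list 1 of 7 genes, Cpa3, had a ratio of at least 2. It was in 14.2% of cells, with Prss34, Ms4a2 and Fcer1a at 0. What these transcripts add to the cluster's profile was not tested.

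The members were not of 1 kind. An NK-class cell had a UMI of Ncr1, Klrb1c, Klre1, Klri2, Klra4, Klra8 or Eomes and none of Cd3d, Cd3e, Cd3g or Trac, and a T-class cell the reverse. The NK-class held 45 cells (39.8%), the T-class 7, both sets were seen in 5 and neither in 56 (49.6%). Median depth over all libraries was close, at 3455 UMIs in NK-class and 3600 in neither-class cells, but within libraries UMIs per cell differed in opposite directions. In PBS replicate 1, 8 NK-class cells held 21841 UMIs and 20 neither-class cells 95885. In PBS replicate 3, 7 NK-class cells held 41647 UMIs and 11 neither-class cells 44402. In AML replicate 3 the sums were 121515 UMIs in 28 and 78762 in 19 cells. Ncr1 and Klrb1c were seen together in 35 cells, which is 89.7% of the Ncr1 cells and 77.8% of the Klrb1c cells. Gata3 and Ncr1, each in 39 cells, were together in 6. Of the 39 Gata3 cells 28 were neither-class and 7 NK-class. Bcl11b, a factor of T cell and type 2 innate lymphoid commitment, was in 16 neither-class cells and 2 NK-class cells, and Tcrg-C1 in 20 and 6. Trbc1 was in 24 cells of each, and Arg1 in 10 of each. Of the 7 T-class cells 6 had a UMI of Bcl11b and 6 of Trbc1. Pooled Trbc1 was at 2168 CPM in T-class, 560 in neither-class and 250 in NK-class cells. Bcl11b was at 774, 157 and 10.2 CPM in the same order. Of the 12 cells with a UMI of a T class gene 6 had only 1, as had 6 of the 50 with an NK class gene. These shares and levels are descriptions of sparse counts.

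Summing counts per library and class in the 3 libraries with at least 5 cells of each, and testing with edgeR's quasi-likelihood test with the library as a term, set the NK-class apart from the neither-class. This comparison was chosen after the class sizes were seen. Of 893 genes tested, 16 (1.79%) were higher and 1 (0.112%) lower in the NK-class at a Benjamini-Hochberg adjusted p under 0.05. Klrb1c and Ncr1 are among the 16 and helped to define the class, so 14 remain. All 14 were higher in the NK-class in 3 of 3 libraries, the same ones that the test used, so this agreement adds no support.

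Ccl5 was at 261, 225 and 584 CPM in neither-class cells of PBS replicates 1 and 3 and AML replicate 3, and at 3617, 3194 and 4032 CPM in NK-class cells of the same libraries. The log2 difference was 3.33 ± 0.23 (SE, adjusted p = 4.4e-05, edgeR). Within every library the lower level belonged to the neither-class, and these are the libraries that the test used. Klrk1, the activating receptor NKG2D, was at 20.9, 45.0 and 0 CPM in neither-class cells and at 824, 240 and 609 in NK-class cells of the same libraries (log2 difference 4.88 ± 0.65, adjusted p = 0.0028, edgeR). Cd226 was higher by 4.13 ± 0.72, on 1 UMI in neither-class cells of each library, and Ms4a4b, a membrane protein of lymphocytes, by 3.34 ± 0.50 on the log2 scale. Hcst, the adaptor DAP10 through which NKG2D signals, was higher by 2.16 ± 0.35. Cd7, a surface protein of T, NK and innate lymphoid cells, was higher by 2.80 ± 0.37, Nkg7 by 1.73 ± 0.25 and the interferon gamma receptor chain Ifngr1 by 2.06 ± 0.33. The other 6 were Pglyrp1, AW112010, Cd52, Tmsb10, Psme2 and Actb, with differences from 0.67 (Actb) to 2.75 (Pglyrp1). Lztfl1, a regulator of transport to cilia, was the gene that was lower, at 229, 518 and 368 CPM in neither-class and 0, 24.0 and 82.3 CPM in NK-class cells (log2 difference -2.86 ± 0.51, adjusted p = 0.014, edgeR).

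The antigen receptor genes that could be tested did not pass. Trbc1 had a log2 difference of -1.02 ± 0.37 (adjusted p = 0.32, edgeR), which became -1.39 ± 0.37 and passed without PBS replicate 1 (adjusted p = 0.012). The log2 difference of Trbc2 was -0.22 ± 0.54 and that of Tcrg-C4 -0.42 ± 0.47. In the innate lymphoid list 2 of 20 genes could be tested, Id2 (-0.33 ± 0.42) and Tox (-0.74 ± 0.42), and neither passed. With no filter on low counts, Tcrg-C1 (-3.32 ± 0.70, adjusted p = 0.0018, edgeR), Gata3 (-2.44 ± 0.64, adjusted p = 0.047) and Bcl11b (-4.10 ± 0.96, adjusted p = 0.011) were lower in the NK-class and were among 39 calls. Gata3 then had 15, 7 and 22 UMIs in neither-class and 0, 3 and 5 in NK-class cells of the 3 libraries. Bcl11b had 4, 1 and 24 in neither-class and 0, 0 and 2 in NK-class cells. Tcrg-C1 had 10, 4 and 37 against 0, 1 and 5, so both rest mostly on AML replicate 3. The marker Gzma was also among the 39 calls and lower in the NK-class (-4.55 ± 1.13, adjusted p = 0.025, edgeR). It had 0, 0 and 24 UMIs in neither-class and 1, 0 and 0 in NK-class cells, so its call rests on AML replicate 3. The filter kept a gene that was frequent enough in 1 of the classes. Klrk1 and Cd226, with at most 2 UMIs in neither-class cells of any library, were therefore tested because of their level in the NK-class. The same held for Ms4a4b, Cd7, Hcst and Pglyrp1, at no more than 146 CPM in neither-class cells of any library. Ifngr1, at 188, 45.0 and 140 CPM in neither-class cells, also passed the filter only with its NK-class levels. Lztfl1 was tested because of its level in the neither-class. The calls of these genes are thus descriptions and not independent support. Over all 891 tested genes outside the class genes the median difference was 0.02. Without AML replicate 3 only Ccl5 was called, and counting from each cell a random 1000 UMIs left Ccl5, Nkg7, Tmsb10 and Actb.

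**Figure D3:**
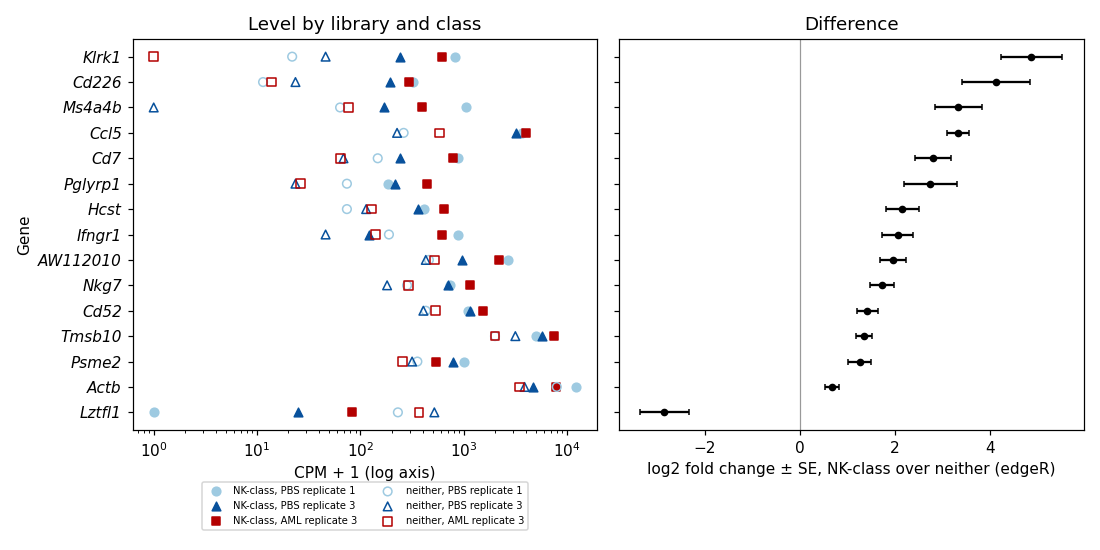
Left, CPM + 1 on a log axis for the 15 genes called between NK-class (filled) and neither-class (open) cells in 3 libraries, class genes left out. Right, the log2 fold change with its SE from edgeR; 14 genes are right of 0 and Lztfl1 lies left of it at -2.86.

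The number of cells in cluster 8 was compared between PBS and AML next. Cluster 8 made up 0.409%, 0.535% and 0.523% of kept cells in PBS replicates 1 to 3, and 0.722% and 1.31% in AML replicates 1 and 3. Both AML libraries lay above all PBS libraries, which 5 of the 9 clusters showed in 1 direction or the other. The means were 0.489% ± 0.069 (SD, n = 3) and 1.02% ± 0.42 (SD, n = 2), and the exact two-sided permutation p was 0.1, the smallest this design allows. The 95% Clopper-Pearson interval was 0.235% to 1.68% in AML replicate 1, which rests on 5 cells and contains all 3 PBS shares, and 0.982% to 1.72% in AML replicate 3. The sort sets which cells could enter these shares. Among G1 cells alone the AML libraries stood at 0 of 102 and 40 of 1940 cells, and the difference of means was 0.420 percentage points (exact permutation p = 0.7).

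A count that does not use the authors' clusters, but does use leading genes of cluster 8, ordered the libraries differently. A barcode was counted when it had a UMI of at least 4 of 18 T and NK genes, which 67 of the 113 cluster 8 cells (59.3%) and 13 of the other 16709 kept cells did. Of cluster 8 it took 9 of 28, 3 of 5 and 15 of 23 cells in PBS replicates 1 to 3. In AML replicates 1 and 3 it took 1 of 5 and 39 of 52. What this uneven capture adds to the shares below was not tested. Among all barcodes in which 1000 or more genes were detected and no more than 10% of UMIs were mitochondrial, 12 of 8609 (0.139%), 5 of 1155 (0.433%) and 19 of 5729 (0.332%) were counted in PBS replicates 1 to 3. In the AML replicates 1 of 800 (0.125%), 0 of 106 and 56 of 5062 (1.11%) were counted, and 0 of 106 allows a share of up to 2.83%. AML replicate 3 was above every other library, and AML replicates 1 and 2 were below every PBS library. With a minimum of 500 detected genes AML replicate 1, at 9 of 5633 (0.160%), was above PBS replicate 1, at 14 of 9140 (0.153%). The groups overlapped, and the difference of means, 0.109 percentage points, had an exact permutation p of 1 with 3 libraries a group. AML replicate 2 weighs there as a full library, though it has 106 barcodes and no kept cell. For 12 of the 106 the same barcode was a kept cell of another library. Without AML replicate 2 the difference was 0.314 percentage points (exact permutation p = 0.7). Depth differed, with a median of 2426.5 UMIs in the barcodes of AML replicate 1 and 9708 in those of PBS replicate 2, and its part in these shares was not tested.

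**Figure D4:**
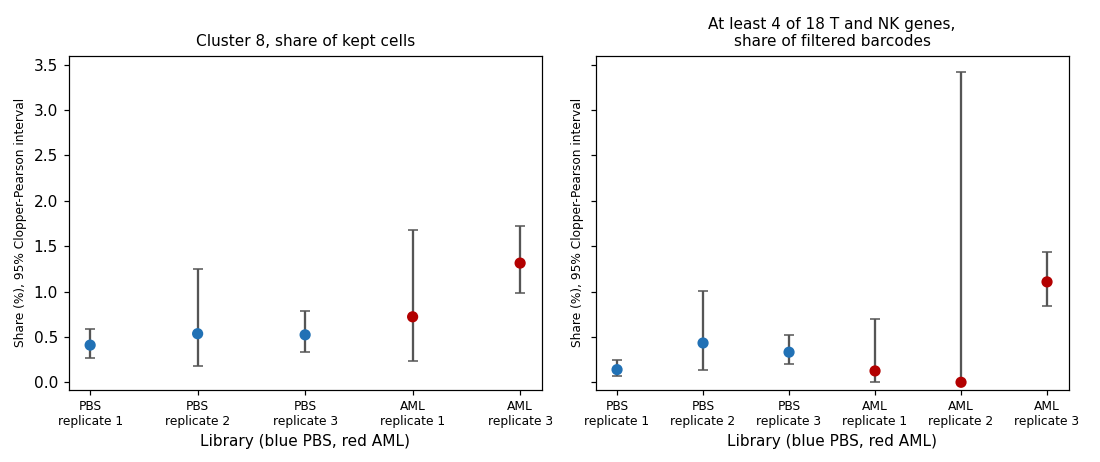
Left, cluster 8 as a percent of kept cells in 5 libraries; right, barcodes with at least 4 of 18 T and NK genes as a percent of filtered barcodes in 6 libraries. Bars are 95% Clopper-Pearson intervals, and AML replicate 3 is the highest point in both panels (1.31% and 1.11%).

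The share of NK-class cells within cluster 8 was 8 of 28 (28.6%), 1 of 5 and 7 of 23 (30.4%) in PBS replicates 1 to 3, and 1 of 5 and 28 of 52 (53.8%) in AML replicates 1 and 3. The means were 26.3% ± 5.6 (SD, n = 3) and 36.9% ± 24 (SD, n = 2), with an exact permutation p of 0.5. In AML replicate 3 the interval of 39.5% to 67.8% lies above every PBS share but overlaps the PBS intervals, which reach 48.7%, 71.6% and 52.9%. When each cell was classed by the larger of its NK and T gene UMI sums, the PBS libraries had 8 of 28, 2 of 5 and 9 of 23 such cells and the AML libraries 1 of 5 and 29 of 52, and the difference of means fell from 10.6 to 1.98 percentage points. Without AML replicate 3 the sign turned, to -6.34 percentage points.

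Within cluster 8, no gene differed between AML and PBS after adjustment. With counts summed per library over 3 PBS and 2 AML libraries, edgeR called 0 of 2032 genes (0.0%) at an adjusted p under 0.05. Before adjustment 55 genes (2.71%) were under 0.05. DESeq2 also called 0, with 8 genes under 0.05 before adjustment. In 17.3% of tested genes the CPM ranges of the groups did not overlap. On counts simulated for these libraries the test recovered 90 of 95 genes changed 4-fold and made 8 false calls. The simulated spread between libraries was set below the 30.3% fitted here. This recovery therefore cannot tell how many real 4-fold changes the test would have missed. The 6 tested NK receptors had fitted log2 differences with a median of 0.95 (0.15 to 1.26), which lean on AML replicate 3. In AML replicate 1 Klrk1 and Cd226 were at 0 and Ncr1, at 59.3 CPM, was below every PBS library, and the group means lay the other way for Ncr1 (236 CPM in PBS, 163 in AML) and Cd226 (101 and 85.4 CPM). The 7 tested innate lymphoid genes had a median of 0.65 and the 6 tested interferon response genes a median of 0.29, beside -0.04 over all tested genes, and none of these genes passed. Group means were lower in AML for Gata3 (118 CPM in PBS, 63.5 in AML), Il18r1 and Tcf7, and higher for Rora, Il7r, Id2 and Tox. Among the interferon genes they were lower in AML for Bst2 (353 and 194 CPM), Rtp4, Socs1 and Xaf1, and higher for Isg15 and Ifi27l2a.

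The 5 genes with the lowest p in each direction are given with their values. Isg15, a ubiquitin-like protein induced by interferon, had 102, 163 and 82.4 CPM in cluster 8 of the PBS libraries and 59.3 and 596 CPM in that of the AML libraries. AML replicate 1 was thus the lowest and AML replicate 3 the highest, on 1 and 136 UMIs, and the log2 difference was 2.04 ± 0.54 (adjusted p = 0.88, edgeR). Outside cluster 8 Isg15 stood at 102 to 128 CPM in PBS and 263 and 272 CPM in AML libraries. Without AML replicate 3 the difference turned to -1.12, and without AML replicate 1 it was among 3 calls, with Lta and Ctsl.

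Klrb1a, an activating receptor of the NK1.1 family, had 17.0, 27.1 and 36.6 CPM under PBS and 119 and 166 CPM under AML, on 2, 1, 4, 2 and 38 UMIs. Both AML libraries were above all PBS libraries, as they were for 7.33% of tested genes. Its log2 difference was 2.52 ± 0.74 (adjusted p = 0.88, edgeR). Gm36723, a noncoding RNA that was also a leading gene, had 42.5, 27.1 and 64.1 CPM in PBS and 119 and 232 CPM in AML (log2 difference 2.07 ± 0.59). Klf2, a factor of lymphocyte quiescence and exit from tissue, overlapped, with 27.5 to 108 CPM in PBS and 59.3 and 206 CPM in AML.

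Mpo, the myeloperoxidase of granulocyte precursors, was at 17.0, 0 and 27.5 CPM in PBS and at 415 and 105 CPM in AML (log2 difference 3.10 ± 0.89, adjusted p = 0.88). In the other kept cells it was at 81.3 to 103 CPM in PBS and 397 and 192 CPM in AML. Of the 10 neutrophil genes listed, 3 had a UMI in cluster 8, with S100a8, S100a9, Ngp, Camp, Ltf, Retnlg and Lcn2 at 0. The list's summed level was 0 to 722 CPM in PBS and 600.0 to 890 CPM in AML. What RNA from other cells adds to the Mpo counts was not tested. The falls with the lowest p were those of Tmed3, Myl10, Pigyl, Med21 and Oaz1, with log2 differences from -1.01 (Oaz1) to -1.86 (Pigyl). Oaz1, the antizyme that restrains polyamine synthesis, had 1503, 2737 and 1767 CPM in PBS and 475 and 1288 CPM in AML. Its difference was -0.53 without AML replicate 1 and -2.33 without AML replicate 3, where it was among 5 calls (adjusted p = 0.049, edgeR), and that of Med21, -1.76 with all libraries, was -6.04 without AML replicate 3. In the libraries with at least 20 cluster 8 cells, 2 PBS and 1 AML, 12 genes were called, 10 of them higher in AML replicate 3, Isg15, Klrb1a, Gm36723, Klf2 and Il7r among them. That lone AML library is assumed to vary like the PBS ones.

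**Figure D5:**
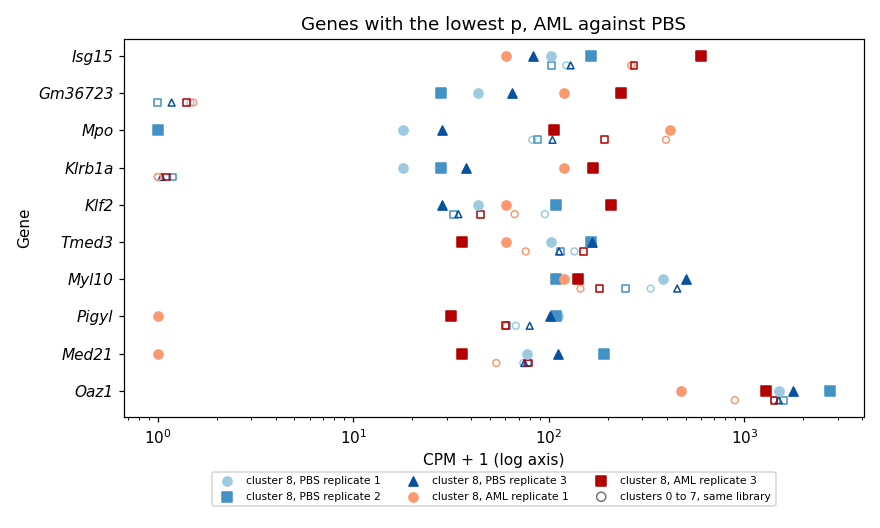
CPM + 1 on a log axis in cluster 8 (filled) and in clusters 0 to 7 (open, drawn just below) of 5 libraries for the 10 genes with the lowest p between AML and PBS. Isg15 is lowest in AML replicate 1 (59.3 CPM) and highest in AML replicate 3 (596 CPM), and Klrb1a separates the groups.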

How the data were processed

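The deposited files hold UMI counts per gene and barcode, without normalization, and a table in which the authors gave each kept cell a library, a cluster number, a class, a phase and module scores. Per the submitters' processing notes these were made with Cell Ranger 7.0.1, R 4.2.2 and Seurat 4.3.0 on GRCm38 (mm10). Per the file headers the table holds the percent of mitochondrial UMIs and a clustering at resolution 0.3 after Harmony. How doublets were treated and which annotation was used are points not given in the sources used here, and 11 of its columns were not used. Cells were joined to the matrices by library and barcode. UMIs per cell equalled the table for every kept cell.

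Counts were summed per library, or per library and class, since cells are not replicates, and libraries with at least 5 cells (of each class) entered. Sums were tested with edgeR 4.0.16 (TMM, filterByExpr, quasi-likelihood test, Benjamini-Hochberg threshold 0.05), with DESeq2 1.42.0 as an alternative. Both fits were tested on simulated data, whose spread between libraries was below that fitted between AML and PBS. Shares were compared with exact two-sided permutation tests over libraries. Intervals and floors (3 counts) cover counting error only. Coordinates are those of GENCODE for GRCm38. A planned test of T-class against NK-class cells was not possible because no library held 5 T-class cells. Genes named were the 20 leading genes, genes of the lists, all calls between classes and the 5 lowest p each way between AML and PBS. The members and the lists were chosen with earlier results of these data known.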

Additional observations from a re-analysis of the deposited data

Results flagged for a closer look

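In AML replicate 3, 9 of the 1113 filtered barcodes that are outside the cell table had a UMI of at least 4 of the 18 T and NK genes (0.809%). They are listed because this exceeds the 0.110%, 0.446% and 0.142% of PBS replicates 1 to 3, which rest on 2, 1 and 2 such barcodes. AML replicates 1 and 2 had 0 of 229 and 0 of 106. The difference between AML replicate 3 and the PBS libraries was not tested, and the barcodes enter only the count over 6 libraries.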

How the results depend on the processing

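Between AML and PBS, edgeR called 0 genes under each setting that kept all libraries (library size only, no filter, thinning to 1000 UMIs, the top 5% of cells by UMIs left out, DESeq2), and between 0 and 5 when 1 library was left out: 3 without AML replicate 1 and 5 without AML replicate 3. Libraries with at least 20 cells, an alternative added after seeing the data, gave 12. With the replicate block 0 genes were called (19 against 55 at an unadjusted p under 0.05). Only numbers 1 and 3 are shared, and the same-numbered libraries' deviations correlated at 0.04 and -0.13 over 2032 genes. With 2 AML libraries the deviations from their mean mirror each other, so these correlations cannot decide on pairing. The numbers were taken to name samples only. The log2 difference of Isg15 reversed to -1.12 without AML replicate 3, was 2.54 without AML replicate 1 and reached 2.72 with libraries of at least 20 cells. The other 101 values of the 10 named genes kept their direction. Between NK-class and neither-class cells the 17 calls became 10 with DESeq2, 39 with no filter (13 of them shared), 4 with cells thinned to 1000 UMIs and 15 with no replicate block. With cells that had fewer than 2 of the 18 T and NK genes left out, there were 24 calls (16 of them shared), Cd74 among them. Leaving out 1 library gave 1 (without AML replicate 3) to 38 (without PBS replicate 1). The difference in the share of cluster 8 ran from 0.232 (without AML replicate 3) to 0.824 (without AML replicate 1), and was 0.358 by the 18 genes among kept cells. The NK-class share difference ran from -6.34 (without AML replicate 3) to 27.5 (without AML replicate 1) and the 6-library difference from -0.239 (without AML replicate 3) to 0.314 (without AML replicate 2). The alternatives planned for T-class against NK-class cells were not run. The cause of these changes was not tested. With 113 cells, a gene seen in a few of them is measured coarsely.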

Other observations

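Chemokine and homing genes of cluster 8 were read as values only. Xcl1 had a UMI in 30 cells, 24 of them with Ncr1. Cxcr6, a homing receptor of NK and innate lymphoid cells, was in 19.5% of cluster 8 cells and 0.0359% of the others, at 93.4, 81.3 and 36.6 CPM under PBS and 0 and 96.3 CPM under AML. Ltb, a lymphotoxin chain, was in 59.3% against 26.1% of cells. Gzma and Cd3g each had a UMI in 8 cells, and both in 4. Ifng had a UMI in 2.65% of cells and none in the other kept cells.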
